A study of Mus musculus with 2 samples.

Results

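In all, 9 genes of the pancreatic duct epithelium were followed in whole pancreas: the type II keratins Krt8 and Krt7, the type I keratins Krt18 and Krt19, the transcription factors Sox9 and Onecut1, the secreted protein gene Spp1, and the surface protein genes Muc1 and Epcam. Members were taken by gene symbol, and every probe set whose platform annotation holds that symbol was used. A probe set is a group of short array probes read as 1 value for a transcript. This gave 14 of the 45101 probe sets, for 8 of the 9 genes and of 18193 genes with a probe set of their own. No probe set was annotated to Spp1 in the table used, so it was not analysed here.

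The mice were male C57BL/6J offspring, an inbred laboratory strain, aged 10 weeks. In the methionine-deficient group the mothers ate a diet deficient in methionine during pregnancy, and in the control group they ate control diet. Methionine is an essential amino acid and a dietary source of methyl groups. All offspring were given control diet from weaning at 3 weeks, so none ate the deficient diet after weaning. Pancreatic RNA was combined into 1 pool per group and each pool was hybridised to 1 Affymetrix array. A single array per group leaves no way to measure how far mice or arrays vary, so no value below has a p-value.

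Pancreatic ducts carry the digestive enzymes made by acinar cells to the gut and add fluid and bicarbonate on the way. Their cells hold intermediate filaments built from pairs of a type I and a type II keratin. Krt8 and Krt18 are the pair of simple epithelia and are also made by acinar cells, whereas Krt19 and Krt7 are the usual duct keratins of the exocrine pancreas. Sox9 is a transcription factor of the embryonic pancreatic progenitors that is retained in ducts and centroacinar cells, and Onecut1, also called HNF6, is needed for normal duct development. Ducts are a small part of the tissue, and in bulk RNA fewer cells of a type and less RNA per cell cannot be told apart.

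The bright members differed little between the pools, and the dimmer ones carried the larger differences. Krt8, Krt18, Muc1, Epcam and Krt19 differed in every probe set by at most 0.28 in log2. Krt7, Sox9 and Onecut1 were higher in the methionine-deficient pool in their brightest probe sets, by 0.74, 0.62 and 1.44. For Sox9 and Onecut1 another probe set of the same gene pointed the other way. Differences are methionine-deficient minus control in log2(intensity + 1), which slightly understates the change of dim genes.

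The sequences before the starts of Krt8, Krt18 and Onecut1 are shown because Krt8 and Krt18 are partners and chromosomal neighbours, and because Onecut1 was the only member gene with a probe set past the level filter that differed by 2-fold or more. They are the 250 bases before the RefSeq start on build GRCm38.p6, 5′ to 3′ on the strand of the gene. Capitals mark matches, on either strand, to the TATA box TATAAA, the GC box GGGCGG, the SOX core ACAAT or the HNF6 core ATCAAT, which do not overlap each other in these windows. Krt8 lies on the minus strand at chr15:102004343-102004592, Krt18 on the plus strand at chr15:102027966-102028215 and Onecut1 on the plus strand at chr9:74861671-74861920.
Krt8: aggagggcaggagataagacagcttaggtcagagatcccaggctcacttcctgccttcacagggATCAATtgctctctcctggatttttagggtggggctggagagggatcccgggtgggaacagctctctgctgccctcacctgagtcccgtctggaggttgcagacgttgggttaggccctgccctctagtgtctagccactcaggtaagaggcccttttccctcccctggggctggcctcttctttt
Krt18: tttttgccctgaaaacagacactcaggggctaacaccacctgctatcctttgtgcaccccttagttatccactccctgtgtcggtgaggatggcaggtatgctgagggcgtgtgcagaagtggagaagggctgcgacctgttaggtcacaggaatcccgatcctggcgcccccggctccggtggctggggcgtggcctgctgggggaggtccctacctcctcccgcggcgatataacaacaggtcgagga
Onecut1: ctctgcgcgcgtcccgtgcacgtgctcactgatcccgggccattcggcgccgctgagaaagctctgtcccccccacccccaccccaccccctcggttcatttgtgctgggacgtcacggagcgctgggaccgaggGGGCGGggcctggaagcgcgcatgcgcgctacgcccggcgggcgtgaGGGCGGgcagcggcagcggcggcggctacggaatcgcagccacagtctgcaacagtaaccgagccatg

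The Onecut1 window held 31 CpG dinucleotides and 2 GC boxes, the Krt18 window 12 CpG and no motif, and the Krt8 window 3 CpG and 1 HNF6 core. The median over 32851 RefSeq windows of this length was 6 CpG, with quartiles of 2 and 16. A GC box was present in 32.7% of those windows, a TATA box in 12.4%, a SOX core in 27.7% and an HNF6 core in 6.72%. Of the other members with a window, Krt7 had 16 CpG and 4 GC boxes, Epcam 8 CpG and 1 GC box, and Muc1 3 CpG, 2 GC boxes and a TATA box 31 bases before the start. These are matches of letters and not sites of binding, and methylation was not measured here.

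The error given for a log2 difference is how far probe sets of 1 gene disagree at like level, as a robust SD called the probe-set spread. It measures probe noise inside these 2 arrays and says nothing of variation between mice. It was 0.17 for the brightest of 10 level bins, 0.60 and 0.67 for the bins that hold most Sox9, Onecut1 and Krt7 probe sets, and 2.33 for the bin of the dimmest Sox9 probe set.

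Krt8, the type II keratin of simple epithelia, was read by 3 probe sets. Probe set 1420647_a_at had an intensity of 10686 in the methionine-deficient pool and 11278 in the control pool (log2 difference -0.08). Probe set 1423691_x_at had 7908 in the methionine-deficient pool and 7781 in the control pool (0.02), and 1435989_x_at had 5989 in the methionine-deficient pool and 7004 in the control pool (-0.23). Both x_at probe sets may bind transcripts of related genes. The gene was thus lower in 2 probe sets and higher in 1, beside a probe-set spread of 0.17.

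Krt18, the type I partner of Krt8, had an intensity of 7866 in the methionine-deficient pool and 9558 in the control pool. This was 1.22-fold lower (log2 difference -0.28, probe-set spread 0.17), and the only probe set of the gene gave the difference. Krt8 and Krt18 lie on chromosome 15 with 0 protein-coding genes between them in the RefSeq annotation of GRCm38.p6. The Krt18 difference was the largest in size among the 6 member probe sets of the brightest bin, of which 5 were lower and 1 higher, with a median of -0.12. Of these probe sets, 4 belong to the Krt8 and Krt18 pair, so they are not independent readings.

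The usual duct keratins had higher values in the methionine-deficient pool. Krt19, a type I keratin widely used as a duct marker, had 972 in the methionine-deficient pool and 855 in the control pool (log2 difference 0.19, probe-set spread 0.28). Krt7, its type II counterpart in ducts, had 369 in the methionine-deficient pool and 221 in the control pool. The methionine-deficient pool was thus 1.67-fold above the control pool (difference of 0.74 in log2, with a probe-set spread of 0.67). Each gene had 1 probe set, and the Krt7 difference was close to 1 probe-set spread in size. In the level bin of Krt7, 15.9% of probe sets differed by 2-fold or more either way.

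**Figure D1:**
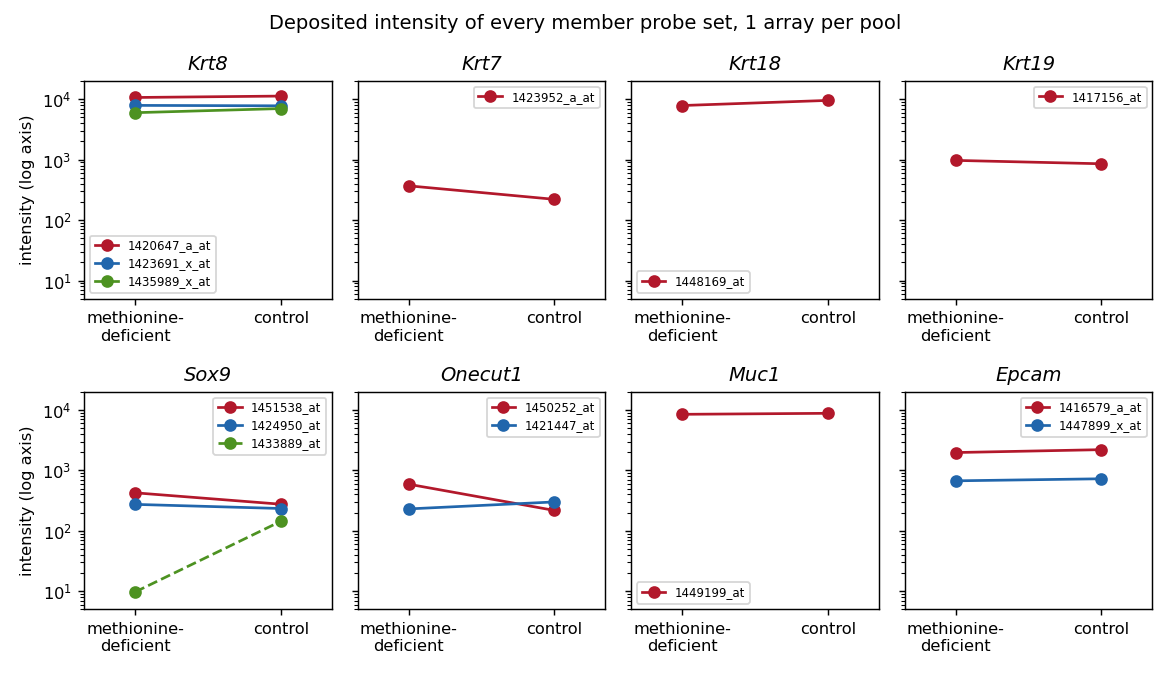
Deposited intensity (log axis) of each member probe set in the methionine-deficient pool (left) and the control pool (right), 1 panel per gene, 1 array per pool; lines join the values of 1 probe set and the dashed line marks the probe set below the level filter. The lines of Krt8, Muc1 and Epcam are nearly flat, while the 2 lines of Onecut1 cross and the 3 of Sox9 part.

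Sox9 was read by 3 probe sets that did not share a direction. Probe set 1451538_at, the brightest, had 425 in the methionine-deficient pool and 275 in the control pool (log2 difference 0.62, probe-set spread 0.60). Probe set 1424950_at, which the platform assigns to the same source sequence, had 274 in the methionine-deficient pool and 234 in the control pool (0.23, probe-set spread 0.67). Both were higher in the methionine-deficient pool.

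Probe set 1433889_at of Sox9, assigned to a different source sequence, had 9.73 in the methionine-deficient pool and 144 in the control pool. Its log2 difference of -3.75 was the largest in size of all 14 member probe sets, beside a probe-set spread of 2.33. It was the only 1 of the 14 whose mean level lay below the filter, an intensity of 150 set at the median of all probe sets. In its level bin 63.7% of probe sets differed by 2-fold or more either way. The mean of the 3 log2 differences was -0.97, set by this dim probe set, whereas the sum of the 3 intensities was 708 in the methionine-deficient pool and 653 in the control pool. The direction of Sox9 thus depends on how its probe sets are combined.

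Onecut1 was read by 2 probe sets assigned to the same RefSeq transcript, and they disagreed. Probe set 1450252_at had 590 in the methionine-deficient pool and 217 in the control pool, which is 2.71-fold higher (1.44 in log2, probe-set spread 0.60). Probe set 1421447_at had 230 in the methionine-deficient pool and 300.2 in the control pool (-0.38, probe-set spread 0.67). The first was the only member probe set whose difference exceeded 2 probe-set spreads, but the share of all probe sets that did so was not counted. In its level bin 7.24% of probe sets differed by 2-fold or more either way. The mean of the 2 log2 differences was 0.53, and the sum of the 2 intensities was 820.4 in the methionine-deficient pool and 517 in the control pool. Such disagreement was common: of 4819 genes read by 2 or more probe sets above the level filter, the brightest and the next differed in direction in 47.9%, and in 45% of the 129 whose brightest probe set differed by 2-fold or more.

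Muc1 encodes a transmembrane mucin of the apical surface of ducts and acini. Its probe set had 8461 in the methionine-deficient pool and 8791 in the control pool (log2 difference -0.06, probe-set spread 0.17). Epcam encodes an adhesion protein found on most simple epithelia, and its probe set 1416579_a_at had 1972 in the methionine-deficient pool and 2201 in the control pool (-0.16, probe-set spread 0.17). Its other probe set, 1447899_x_at, had 671 in the methionine-deficient pool and 726 in the control pool (-0.11, probe-set spread 0.39). Both Epcam probe sets were lower by less than 1 probe-set spread, as was that of Muc1.

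**Figure D2:**
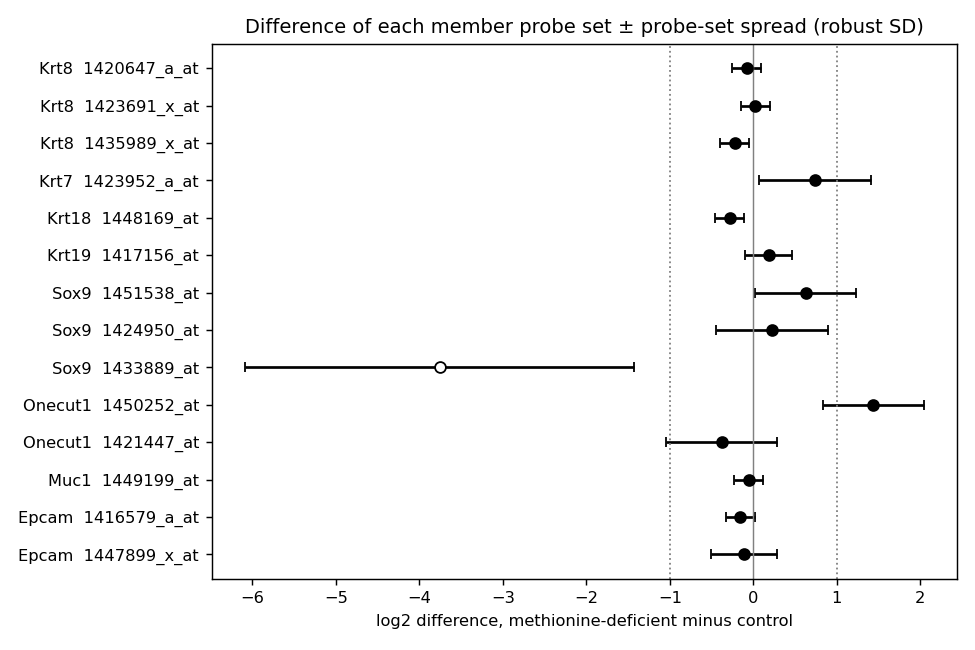
Log2 difference, methionine-deficient minus control, of each of the 14 member probe sets (points); bars are ± 1 probe-set spread, the robust SD between probe sets of 1 gene at that level, dotted lines mark 2-fold, and the open point lies below the level filter. The probe sets of Krt8, Krt18, Krt19, Muc1 and Epcam lie near 0, whereas 1 Onecut1 probe set lies above the upper dotted line and 1 Sox9 probe set below the lower one.

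Counted by gene, with the brightest probe set as the gene's value, all 8 measured members passed the level filter. Of these, 4 were higher and 4 lower, and 1, Onecut1, differed by at least 2-fold, where 6.68% of the 11848 genes past the filter did so. Of the 13 member probe sets past the filter 1 differed by at least 2-fold, against 7.45% of all such probe sets. Both shares rest on a single probe set. The median log2 difference of the 8 genes was 0.07, and that of all genes past the filter was 0.00 to 2 decimals. With the filter at the 75th percentile, which Krt7, Sox9 and Onecut1 did not pass, the median of the 5 remaining genes was -0.08.

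The plot of difference against level shows where these values lie among all probe sets. The share differing by 2-fold or more was 63.7% in the bin of the dimmest Sox9 probe set, 7.24% in that of the brightest Sox9 and Onecut1 probe sets, and 0.258% in that of Krt8, Krt18, Muc1 and the brighter Epcam probe set.

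**Figure D3:**
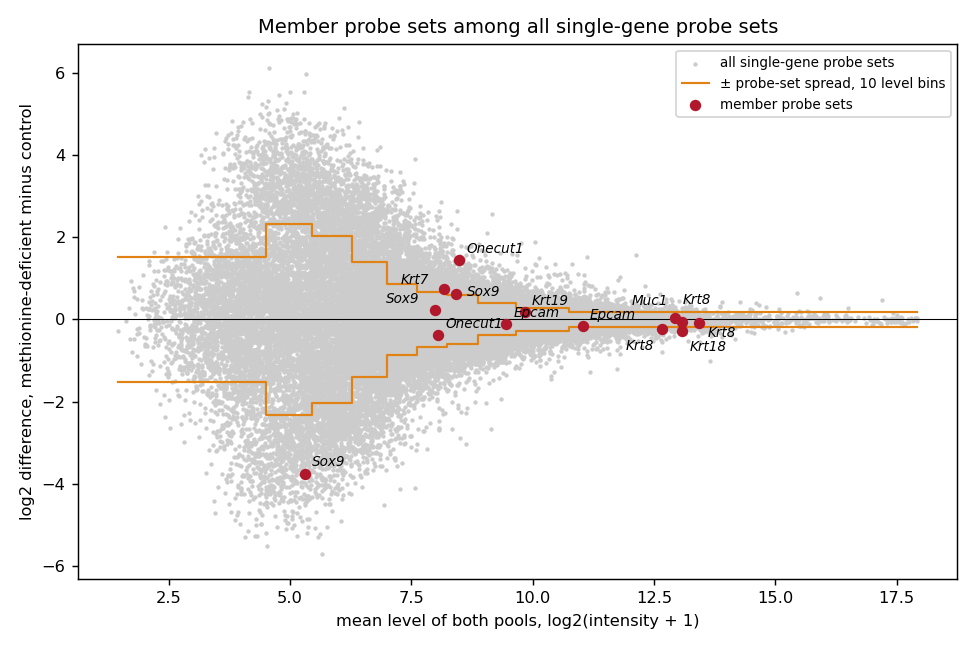
Log2 difference (methionine-deficient minus control) against mean level, log2(intensity + 1), for all single-gene probe sets (grey) and the 14 member probe sets (red, labelled by gene); orange steps are ± 1 probe-set spread in 10 level bins. The spread narrows from 2.33 in the bin of the dimmest Sox9 probe set to 0.17 in the brightest bin. The members with larger differences lie at lower levels than Krt8, Krt18, Krt19, Muc1 and Epcam.

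Other genes of the duct and of the members' pathways were read in the same way, each by its brightest probe set. Of 20 other duct genes 18 had a probe set and 15 passed the filter, 11 higher and 4 lower (median 0.10). None differed by 2-fold in its brightest probe set, and 50% of all genes past the filter were higher. Bicc1, counted as lower at -0.36, had 2 higher probe sets, up to 1.02. Atp1b1, counted as higher at 0.09, had 4 lower probe sets, down to -1.05. Sctr, the receptor for the hormone secretin, had 405 in the methionine-deficient pool and 230.3 in the control pool (log2 difference 0.81, probe-set spread 0.60). Prom1, a protein of apical membrane protrusions, had 7150.4 in the methionine-deficient pool and 7252 in the control pool (-0.02). Cftr, the chloride channel of duct cells, lay below the filter, and its 2 probe sets gave -1.46 and 2.09.

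Of 13 keratins that mark mainly other epithelia, 7 passed the filter, 4 higher and 3 lower (median 0.04). Krt20, an intestinal keratin, had a log2 difference of 0.38 and Krt23 one of 0.43. Krt5, a keratin of basal cells, lay below the filter at 271 in the methionine-deficient pool and 60.7 in the control pool. The largest difference past the filter was that of Krt4, a keratin of stratified epithelia, at 929.5 in the methionine-deficient pool and 1809 in the control pool (-0.96, probe-set spread 0.28), and Krt6a had -0.76. The Krt4 probe set may bind several genes, and the other probe set of Krt4, below the filter, gave 1.67. Of 10 genes for desmosome and linker proteins that anchor keratin filaments 8 passed, 5 higher and 3 lower (median 0.11). Desmoplakin (Dsp) had 0.18, plectin (Plec) 0.16 and plakoglobin (Jup) 0.06. The other 2 probe sets of Dsp and the other 2 of Plec were lower, down to -0.95 and -0.57. The Jup probe set may bind several genes. Periplakin (Ppl) differed by more than 2-fold, at 145 in the methionine-deficient pool and 444 in the control pool (-1.60, probe-set spread 0.67), from 1 probe set.

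Genes upstream of Sox9 and beside Onecut1 gave small differences in most cases when read by their brightest probe sets. All 12 Notch and Hippo pathway genes passed the filter, 6 higher and 6 lower (median -0.01). The Notch target Hes1 had a log2 difference of -0.18, the receptor Notch1 -0.20 and the Hippo effector Yap1 -0.08. The other probe sets of Notch1 and Yap1, also past the filter, were lower by more, at -0.76 and -0.90. Hey1, another Notch target, was 2.26-fold above the control pool, at 272 in the methionine-deficient pool and 120 in the control pool (1.17, probe-set spread 0.86). Of 12 foregut transcription factor genes 8 passed, 3 higher and 5 lower (median -0.04), with Foxa2 at 0.02, Hnf4a at -0.14 and Gata6 at -0.26. The Hnf4a probe set may bind several genes.

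Among genes of surface and adhesion proteins, 17 of 18 were measured and passed the filter, 12 higher and 5 lower (median 0.06). E-cadherin (Cdh1) had 6092 in the methionine-deficient pool and 5539 in the control pool (log2 difference 0.14). Cldn7, a tight junction protein known to bind Epcam, had 0.12, and Cldn4 had 79.6 in the methionine-deficient pool and 316 in the control pool (-1.98, probe-set spread 0.86). Of 10 genes for receptors of osteopontin, the product of Spp1, 7 passed, 3 higher and 4 lower (median -0.02). Cd44 had 0.72, the integrin gene Itgav -0.17 and Itgb1 -0.02. Each of these genes had probe sets in both directions. They ran from -0.45 to 2.29 for Cd44, -3.20 to 3.61 for Itgav and -0.89 to 3.76 for Itgb1.

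Mucins other than Muc1 were higher in each of the 4 cases past the filter, out of 8 measured (median 0.91). Muc20 had 617 in the methionine-deficient pool and 298 in the control pool (log2 difference 1.05, probe-set spread 0.60), and Muc13 had 466 in the methionine-deficient pool and 274 in the control pool (0.77). The Muc13 probe set may bind several genes. Muc5ac, the gel-forming mucin of the stomach surface, had 350.1 in the methionine-deficient pool and 70.9 in the control pool (2.29, probe-set spread 0.86). Muc4 lay below the filter. Muc5ac, like Hey1, Ppl and Cldn4 above, reached the filter's intensity of 150 in 1 pool only, and a gene that passes through the pool where it is high had to differ.

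Markers of the stomach and intestine epithelium, which include Muc5ac, passed the filter in 4 of 10 cases. Their summed intensity was 4166 in the methionine-deficient pool and 3039 in the control pool. Tff1 had 3406 in the methionine-deficient pool and 2542 in the control pool, and Gkn1 had 149 in the methionine-deficient pool and 295 in the control pool. The Gkn1 probe set may bind several genes. Of the 4 that passed, Muc5ac, Gkn1 and Vil1 reached the filter's intensity in 1 pool only. The sums thus include genes that had to differ. None of the 10 markers was listed at 0, but neither was any other probe set. The lowest intensity of all was 0.669 in the methionine-deficient pool and 0.685 in the control pool. Cdx2, Lgals4 and Cdh17 lay below the filter. The part of these stomach and intestine markers in the mucin and keratin values was not tested.

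Of the markers of the labelled tissue, 9 of 9 measured acinar genes and 8 of 10 islet genes passed the filter. Of all 18193 genes 11848 did so, so passing it is by itself a weak sign of presence. The summed acinar intensity was 931357 in the methionine-deficient pool and 943841 in the control pool. That of the islet genes was 181928 in the methionine-deficient pool and 174322 in the control pool. Mesothelial cells also make Krt8, Krt18 and Krt19, and 3 of 6 of their markers passed the filter, with a summed intensity of 2311 in the methionine-deficient pool and 1933 in the control pool; Msln and Wt1 lay below it. RNA quality, read as the 3′ to 5′ ratio of the Actb controls, gave 1.76 in the methionine-deficient pool and 1.46 in the control pool. The same ratio of the Gapdh controls was 1.11 in the methionine-deficient pool and 0.97 in the control pool. The part of any of these in the members' values was not tested.

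The remaining lists cover cells that surround ducts. Macrophage genes passed in 9 of 11 cases, 4 higher and 5 lower (median -0.01), with C1qa at 1.01, C1qb at 0.46 and C1qc at -0.01. Fibroblast and stellate cell genes passed in 10 of 10, 7 higher and 3 lower (median 0.16). Pdgfra had 405 in the methionine-deficient pool and 859 in the control pool (-1.08, probe-set spread 0.39). The other 2 probe sets of Pdgfra, below the filter, were higher in the methionine-deficient pool. Endothelial genes were higher in each of the 5 past the filter (median 0.37). B and plasma cell genes were lower in 4 of 5 (median -0.42), and adipocyte genes were lower in each of the 3 past the filter (median -0.21). The adipocyte gene Cidec had 199.6 in the methionine-deficient pool and 604 in the control pool (-1.59, probe-set spread 0.60), from 1 probe set.

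**Figure D4:**
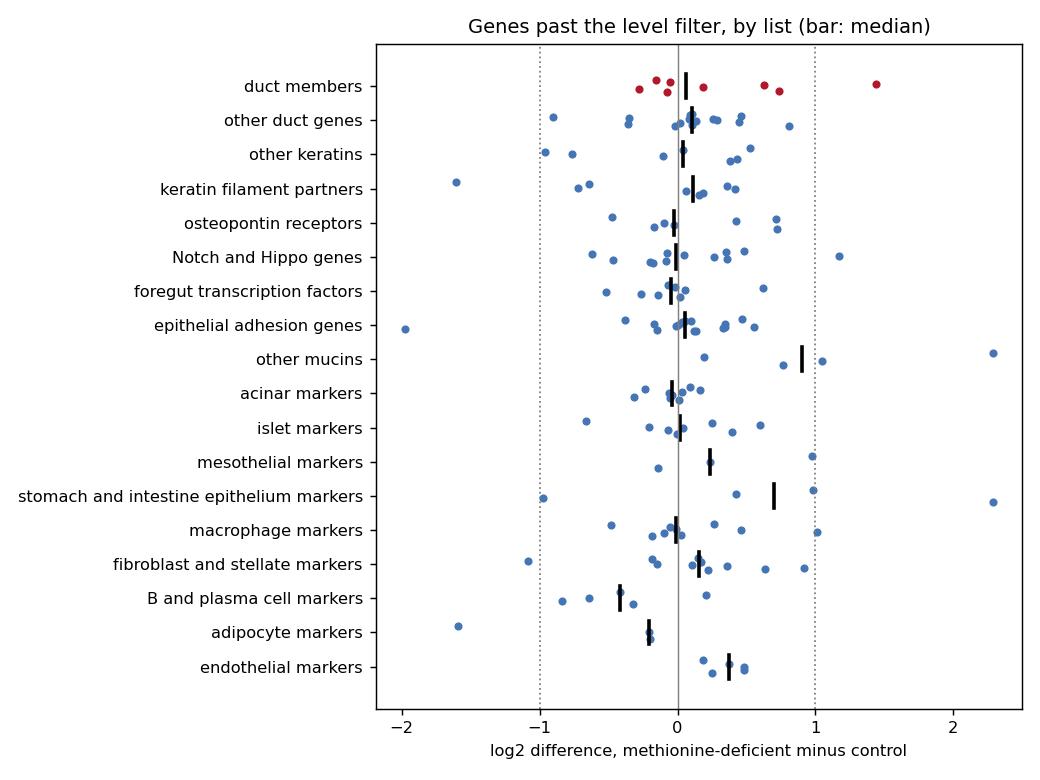
Log2 difference, methionine-deficient minus control, of each gene past the level filter (points, brightest probe set), by list, with the duct members in red at the top; black bars are list medians and dotted lines mark 2-fold. The duct members spread from -0.28 to 1.44 around a median of 0.07, and most lists have medians near 0.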

How the data were processed

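Pancreas RNA of 2 groups was measured on 2 arrays, 1 pool and 1 array each. The authors deposited 1 linear intensity for each probe set. How background was corrected and arrays were scaled is not given in the sources used here. Judged by the values, both arrays share a mean of 500 after trimming 2% at each end, so a change in total RNA would not be seen. Detection calls were not used here. Probe sets were named by the 2016 platform annotation, with symbols brought up to date by gene identifier for 34741 of 34945 probe sets with 1 symbol. Another 932 had several symbols, 9160 were unnamed here and 64 were array controls.

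Values were taken to log2(intensity + 1). Each gene was read by its brightest probe set, and the level filter was the median over all probe sets except array controls. A 2-fold difference was counted, with no test. The probe-set spread was computed from pairs of probe sets of 1 gene within 10 level bins, as the robust SD of the difference within pairs divided by the square root of 2, and was tested on simulated data. Genes named were the members, the first 3 of each of 17 lists and list genes at 2-fold; some of these are given only within their list's count, and any others named were chosen after their values were seen. The members and lists were chosen with earlier results of these data known. Alternatives changed the scaling, pseudocount, level filter, use of probe sets and fold size. Computations used Python 3.11.15, numpy 2.4.6, pandas 2.3.3 and statsmodels 0.14.6. Promoter windows are from RefSeq, GRCm38.p6. The number of arrays limits the precision.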

Additional observations from a re-analysis of the deposited data

How the results depend on the processing

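The count of member genes at 2-fold stayed at 1, Onecut1, with median centring (6.52% of all genes), loess (6.57%) or quantile scaling (6.56%). It also stayed at 1 with a pseudocount of 16 (5.86%) and without probe sets that may bind several genes (6.83%). Without a level filter it was again 1, Onecut1, where 23.8% of all genes differed by 2-fold. It was 0 of 5 with the level filter at the 75th percentile (1.3% of all genes), 0 of 7 with the mean over probe sets (8.53% of all genes), where Onecut1 had 0.53 and Sox9 lay below the filter at -0.97, against 0.62 from its brightest probe set, 3 of 8 at 1.5-fold (Krt7, Sox9 and Onecut1, against 19.4% of all genes) and 0 of 8 at 3-fold (1.81%). The count of member probe sets was 2 of 14 with no level filter, where 28.8% of all probe sets differed by 2-fold, 0 of 8 with the 75th percentile filter (1.31%), 3 of 13 at 1.5-fold, close to the 21.4% of all probe sets, and 0 of 13 at 3-fold (1.99%). The median of the member genes had no settled direction, at -0.08 with the 75th percentile filter and -0.06 with the mean over probe sets, against 0.07. Of 60 values of member genes past the filter under an alternative, 25 could not move by the alternative's construction. Of the other 35, 34 moved by less than the probe-set spread and 1, that of Onecut1 above, by more. The Sox9 mean, below the filter, is not among them and changed sign. No paired analysis was possible because each group is 1 pool on 1 array. No replicate could be left out for the same reason. Signal over background cannot be judged without detection calls, and the dimmer Sox9, Onecut1 and Krt7 values depend on it most.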
